A study of Mus musculus with 29 samples.

Results

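Spleens at the progression stage of a myeloproliferative disease were set against spleens at its early stage in mice that carry the MLL-ENL-ERtm fusion. The 3 progression and 3 early arrays were chosen by their stage labels, and they are 6 of the 29 arrays of the study, which holds 14 spleen arrays and otherwise bone marrow. In MLL-ENL-ERtm, the leukaemia fusion of MLL (gene Kmt2a) and ENL (gene Mllt1) is joined to an altered ligand-binding domain of the oestrogen receptor (gene Esr1), so that it acts while tamoxifen is supplied. Every mouse, wild type included, ate chow with 300 mg of tamoxifen per kg. Tamoxifen had been given for 10, 10 and 9 months in progression samples 1, 2 and 3, and for 7 months in each early sample, so stage and time on tamoxifen cannot be told apart. The submitters describe progression spleens as partly senescent with the DNA damage response (DDR) kept, and early spleens as proliferating with the DDR switched on. For context, 3 terminal-stage spleens had 21, 23 and 19 months of tamoxifen, and 5 wild-type spleens had 24, 8, 9, 11 and 11 months. The labels call the samples of a group biological replicates, without saying how many mice each holds. The promoter that drives the fusion, the mouse strain and the age at which tamoxifen began are not given in the sources used here.

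MLL fusions hold a set of developmental genes, among them the homeobox genes Hoxa9 and Meis1, at a high level in blood progenitors, which then expand along the myeloid line. In adult mice the spleen is both a lymphoid organ and a site where red cells, platelets and myeloid cells can be made outside the marrow, and its red pulp macrophages clear old red cells. Cells under oncogene stress can switch on the DDR and leave the cell cycle for good, a state called senescence, which is often marked by CDK inhibitors, by loss of lamin B1 (Lmnb1) and by secreted inflammatory factors.

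All levels are log2 probe set values as the authors deposited them, and a difference is the progression mean minus the early mean on the log2 scale, with the standard error (SE) of a limma fit over the 14 spleen arrays. The number of arrays limits the precision: the median SE of a difference was 0.168. A gene passed if its p, adjusted by the Benjamini-Hochberg method over 12394 genes, was under 0.05. In bulk tissue, fewer cells of a type and less RNA per cell cannot be told apart.

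Genes of cell types found in spleen were read first. B cell gene Ms4a1 read 9.56, 10.63 and 11.57 in progression arrays 1, 2 and 3, against 11.39, 11.68 and 10.48 in early arrays 1, 2 and 3. T cell gene Cd3e read 7.87, 7.36 and 7.99 in progression arrays 1, 2 and 3, against 7.91, 8.18 and 7.68 in early arrays 1, 2 and 3, and the red pulp macrophage regulator Spic read 8.84, 8.30 and 8.12 in progression arrays 1, 2 and 3, against 8.65, 8.66 and 6.40 in early arrays 1, 2 and 3. All these values lay above the mean lower quartile of the 6 arrays, 4.70, with the lowest for Spic on early array 3. Most probe sets exceed that level by definition, and such cells also occur in marrow. The values therefore do not test the tissue labels. Myeloid RNA was high in both stages: the neutrophil granule enzyme Mpo read 13.33, 14.03 and 13.84 in progression arrays 1, 2 and 3, against 13.79, 13.25 and 14.07 in early arrays 1, 2 and 3, and 9.66 to 11.12 in wild-type spleens.

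Several of the 6 arrays stood apart from the others of their own group. Control probe sets for 18S ribosomal RNA averaged 9.36, 9.55 and 14.18 in progression arrays 1, 2 and 3, against 14.08, 14.05 and 14.03 in the early arrays, so progression arrays 1 and 2 lay far below every other spleen array. A second split ran across the groups. Atrx, a chromatin remodeller, read 10.27, 9.71 and 7.10 in the progression arrays and 9.71, 9.06 and 7.66 in the early arrays, and Malat1, a nuclear long non-coding RNA, read 13.75, 13.61 and 11.33 against 13.48, 13.46 and 11.86. Array 3 was thus the low one in both groups, together with wild-type arrays 2 to 5, while terminal arrays and wild-type array 1 were high. Early array 3 also had the immediate early gene Fos at 12.87, against 7.48 and 7.34 in early arrays 1 and 2 and 8.77, 7.73 and 7.73 in the progression arrays. The sinus endothelial gene Plvap was 6.13 on early array 3, against 9.55 and 9.47 on early arrays 1 and 2. Early array 1 held pancreas acinar RNA, with a list mean of 7.41 against 5.02 to 5.49 on the other 5 arrays, and it alone of the 6 had a high Xist level, 12.59. Refits with the 18S level, Atrx, Xist or the pancreas list as a covariate are given with the other settings at the end. Beyond those refits and the values beside each result, the part of these features in the results was not tested.

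**Figure D1:**
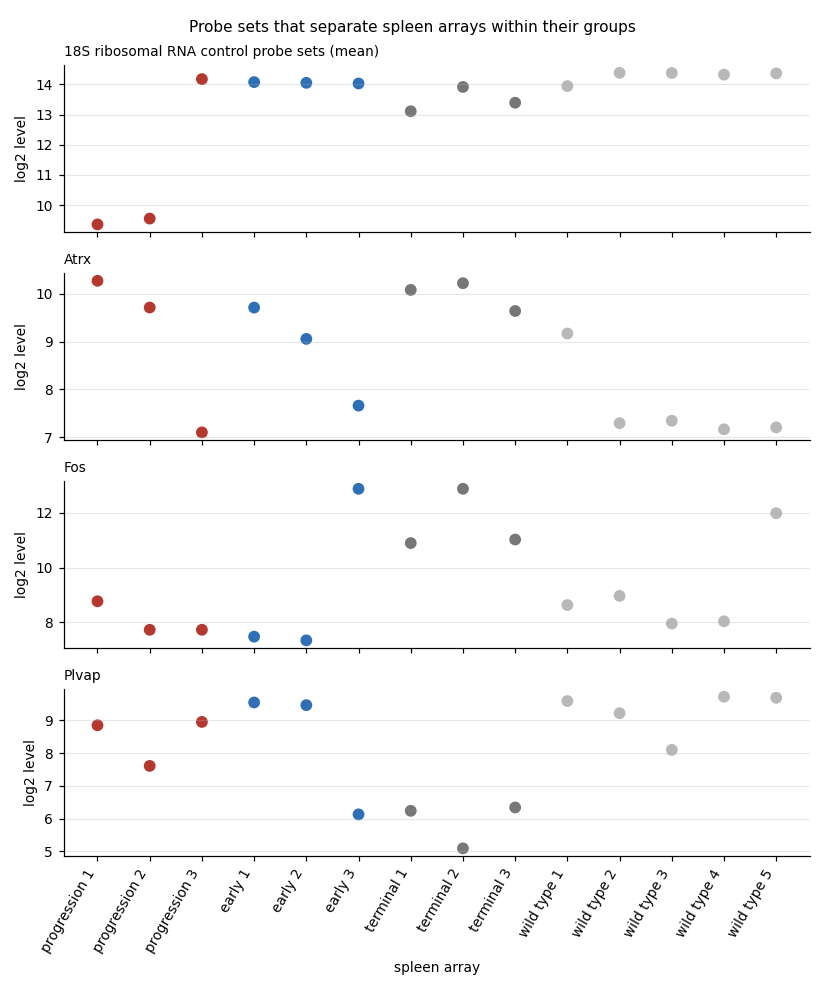
Log2 levels of 4 measures (18S control probe sets, Atrx, Fos and Plvap; vertical axes) on each of the 14 spleen arrays (horizontal axis), coloured by group with progression at the left. The 18S level is 9.36 and 9.55 on progression arrays 1 and 2, Atrx is low on array 3 of both groups, and Fos is high and Plvap low on early array 3.

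Counting the genes that differed by at least 1 log2 unit between pairs of arrays gave the same picture. Between progression arrays 1 and 2, 377 genes differed, but progression array 3 differed from them at 634 and 517 genes. From early arrays 1 and 2, progression array 3 differed at 127 and 154 genes. Early arrays 1 and 2 differed at 79 genes, and early array 3 differed from them at 634 and 836. In pair counts, progression array 3 was therefore nearer to early arrays 1 and 2 than to the other arrays of its own stage.

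**Figure D2:**
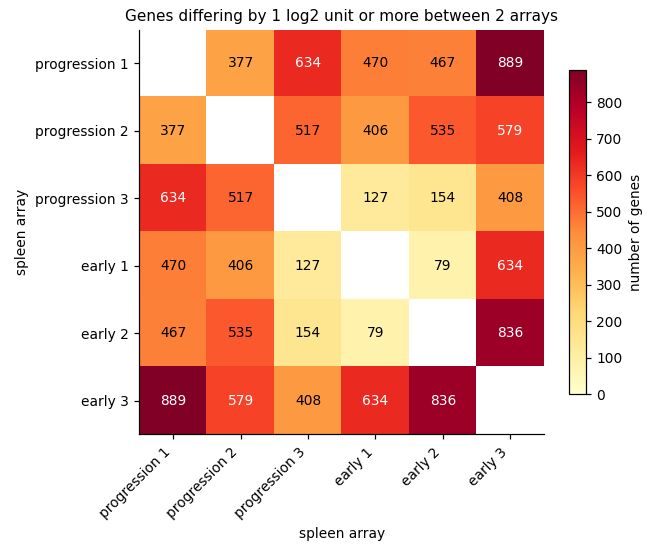
Number of genes (colour and figure in each cell) whose log2 levels differ by 1 or more between each pair of the 6 arrays, with progression arrays left of and above early arrays. Progression array 3 differs from early arrays 1 and 2 at 127 and 154 genes, and from progression arrays 1 and 2 at 634 and 517.

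The comparison of the stages asks which genes move as the spleen goes from a proliferating to a partly senescent state. Median differences were positive for lists of spleen macrophage (0.47), megakaryocyte (0.44), early B cell precursor (0.40), monocyte (0.30) and interferon-induced genes (0.27). They were negative for B cell (-0.54), homing chemokine and receptor (-0.36) and red cell membrane genes (-0.32), while the fusion's targets and the proliferation and DDR genes had list medians near 0. The pancreas acinar (-0.75) and immediate early (-0.27) lists were also negative, with their highest means on early arrays 1 and 3. Of the lists named so far, only the interferon list had array means that did not overlap between the groups. The ribosomal protein (0.037) and respiratory chain (0.078) lists did not overlap either. B cell genes were not lower on progression array 3. Megakaryocyte genes were above the early mean on progression array 1 alone, and macrophage genes were not above it on array 2. No gene passed the test: 0 of 12394 genes (0% called) had an adjusted p under 0.05, and the smallest adjusted p was 0.524. At an unadjusted p under 0.05, 470 genes were higher in progression (3.79%) and 440 lower (3.55%). Groups did not overlap, with all 3 progression arrays above all 3 early arrays, for 518 genes (4.18%), and with all 3 below for 379 genes (3.06%). Centring each array on its median changed that balance to 628 higher and 325 lower at the unadjusted threshold, and to 615 above and 293 below without overlap. Over all genes, 50.6% of differences were positive, and the median difference was 0.0032. Leaving out progression array 3 gave 382 genes that passed (152 higher, 230 lower). Leaving out progression array 2 gave 1 gene, Vpreb1.

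The genes that make up the fusion overlapped between the stages. Esr1, whose ligand-binding domain is part of the fusion, read 7.03, 7.04 and 7.64 in progression arrays 1, 2 and 3, against 7.71, 7.66 and 7.08 in early arrays 1, 2 and 3, and 4.70 to 5.48 in wild-type spleens. All 6 fusion-carrying spleens lay above the wild-type range, and the stages overlapped, with a difference of -0.25 ± 0.22 (SE; adjusted p = 0.811, limma). Kmt2a differed by -0.16 ± 0.24 and Mllt1 by 0.094 ± 0.15, also with overlap.

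The homeobox targets overlapped between the stages as well. Hoxa9, which supports self-renewal of blood progenitors, read 10.52, 11.04 and 10.71 in progression arrays 1, 2 and 3, against 10.46, 9.74 and 10.63 in early arrays 1, 2 and 3; wild-type spleens read 4.73 to 6.02. Early array 2 was the lowest of the 6 and the groups overlapped, with a difference of 0.48 ± 0.46 (adjusted p = 0.825, limma). Meis1, a DNA-binding partner of Hox proteins, read 6.61, 6.86 and 6.55 in the progression arrays and 6.51, 6.45 and 6.60 in the early arrays, a difference of 0.16 ± 0.17, and 4.87 to 5.57 in wild type. Of the 17 measured genes on the list of MLL fusion targets, 8 were higher and 9 lower in progression, with a median of -0.0062 and none at an unadjusted p under 0.05. Stem and progenitor genes had a median of 0.16 over 16 genes, with 1 higher (Cd48, an adhesion receptor) and 1 lower (Erg, a transcription factor of stem cells) at an unadjusted p under 0.05, shares near those over all genes (3.79% higher, 3.55% lower). Cd48 read 11.29, 10.87 and 10.36 in the progression arrays and 9.98, 9.94 and 10.47 in the early arrays, with early array 3 inside the progression range.

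Among single genes, Bex6 had the smallest p on the higher side. Its levels were 9.34, 9.09 and 9.02 in progression arrays 1, 2 and 3, against 8.38, 7.81 and 8.34 in early arrays 1, 2 and 3. Every progression array lay above every early array, and the wild-type range, 6.37 to 6.58, was lower than both. The difference was 0.98 ± 0.17, which missed the threshold (adjusted p = 0.524, limma). Lat2 followed, an adaptor that links immune receptors to signalling in B and myeloid cells, with 9.15, 8.98 and 8.50 in progression arrays 1, 2 and 3, against 7.88, 7.74 and 8.19 in early arrays 1, 2 and 3. Here too the groups did not overlap, but progression array 3 lay closest to the early range. Its difference was 0.94 ± 0.18 (adjusted p = 0.524, limma), and the wild-type range, 8.32 to 8.64, lay above the early arrays.

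Adgre1, a surface receptor of mature macrophages, read 9.50, 8.90 and 9.47 in progression arrays 1, 2 and 3, against 8.60, 8.64 and 7.81 in early arrays 1, 2 and 3. Early array 3 was the lowest, the groups did not overlap, and the difference was 0.94 ± 0.23. Naip5, a cytosolic sensor of bacterial flagellin, read 8.87, 8.80 and 8.00 in the progression arrays and 7.72, 7.76 and 7.63 in the early arrays, a difference of 0.85 ± 0.22. Hfe, which restrains iron uptake, read 9.81, 8.77 and 8.80 in the progression arrays and 8.10, 8.20 and 8.14 in the early arrays, with progression array 1 the highest, and differed by 0.98 ± 0.24. A second Hfe probe set differed by only 0.21. Scarb1, the receptor for high-density lipoprotein, differed by 0.50 ± 0.13, and by 0.17 and 0.051 on its other probe sets. Myo1g, a myosin of blood cells, differed by 0.49 ± 0.12. The largest difference among the 15 higher genes of smallest p was that of Tppp3, a tubulin-binding protein, at 1.90 ± 0.45. It read 9.20, 7.85 and 7.37 in progression arrays 1, 2 and 3, against 6.25, 6.61 and 5.85 in early arrays 1, 2 and 3, so the progression arrays differed among themselves by more than 1 log2 unit but none reached down to the early range.

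Of the others among the 15, Nsfl1c, a cofactor of the ATPase p97, differed by 0.57 ± 0.14. Lamtor3, a part of the lysosomal Ragulator complex, differed by 0.41 ± 0.10, and Ryr1, a calcium release channel, by 0.57 ± 0.12. Zwint, a kinetochore protein, read 10.79, 10.57 and 9.76 in the progression arrays and 9.40, 9.44 and 9.62 in the early arrays, but its 6 probe sets ranged from -0.22 to 1.09 in their differences. Tmprss3, a membrane serine protease, and Chst5, a sulfotransferase, differed by 0.65 and 0.55 at levels near the dim end of the arrays (within 1 unit of the lower quartile). The remaining probe set of the 15 carries the symbol of a microRNA and is given no value, since such a probe set cannot be tied to the mature RNA. Adjusted p ran up to 0.634 over these genes (limma), and the groups did not overlap for any gene described here.

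On the lower side the smallest p belonged to Lmbr1, a membrane protein gene, at 4.91, 4.96 and 5.22 in progression arrays 1, 2 and 3, against 5.56, 5.66 and 5.71 in early arrays 1, 2 and 3. The groups did not overlap, the levels were dim, and the difference was -0.62 ± 0.12 (adjusted p = 0.524, limma). Bcas3 read 6.14, 6.30 and 6.65 in the progression arrays and 6.95, 6.86 and 7.19 in the early arrays and differed by -0.64 ± 0.14. Hpn, the membrane protease hepsin, read 5.88, 5.94 and 6.18 in the progression arrays and 6.94, 6.87 and 6.45 in the early arrays and differed by -0.76 ± 0.16. Rec8, a cohesin subunit of meiosis, differed by -0.85 ± 0.20, and Slain1, a microtubule end-binding protein, by -0.54 ± 0.12. On other probe sets the differences were smaller: -0.25 and -0.18 for Lmbr1, -0.086 for Bcas3, and -0.29 and -0.032 for Slain1. On the brightest probe set of each of these genes the 3 progression arrays lay below the 3 early arrays.

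Signalling and transport genes were also among them. Pip5k1a, a kinase that makes the lipid PIP2, read 7.69, 8.09 and 8.76 in progression arrays 1, 2 and 3, against 9.30, 9.18 and 8.78 in early arrays 1, 2 and 3. Progression array 3 lay within 0.1 of early array 3, and the difference was -0.91 ± 0.21. All 4 Pip5k1a probe sets had negative differences, between -0.91 and -0.18. Il3ra, a subunit of the interleukin 3 receptor, read 5.90, 5.93 and 6.10 in the progression arrays and 6.45, 6.76 and 6.79 in the early arrays and differed by -0.69 ± 0.17, with wild-type spleens at 5.73 to 6.07. Slc6a9, a glycine transporter, read 9.51, 9.22 and 9.58 in the progression arrays and 9.94, 10.23 and 10.20 in the early arrays and differed by -0.69 ± 0.18. Rab4a, a GTPase of recycling endosomes, differed by -1.44 ± 0.37 and was lower on both of its probe sets. Mettl27, a methyltransferase-like gene, differed by -0.56 ± 0.14.

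Mpst, an enzyme of sulfur metabolism, had the largest difference of the 15 lower genes of smallest p, -2.34 ± 0.59, and its groups overlapped. It read 6.62, 6.37 and 9.63 in progression arrays 1, 2 and 3, against 9.87, 9.50 and 10.29 in early arrays 1, 2 and 3. The first 2 progression arrays lay more than 2 log2 units under every other spleen array (8.98 to 10.29), and the third lay within the early range. Figla, Mme, Gdap1l1 and Gna14 had dim levels, with differences of -0.59, -0.50, -0.56 and -0.90. A second Mme probe set gave 0.22, the opposite direction. The 30 genes with the smallest p kept the sign of their difference under every alternative run for them. They were picked by p on these same values, so this was nearly fixed by the choice and is not a separate test.

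**Figure D3:**
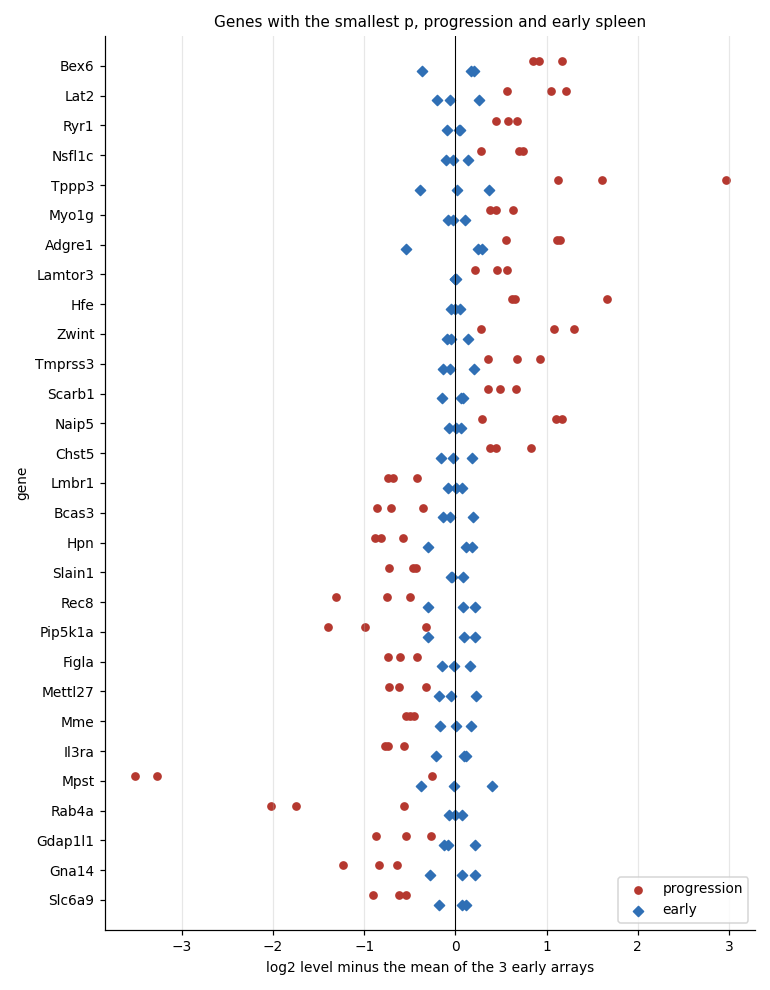
Log2 level of each named gene minus the mean of its 3 early arrays (horizontal axis) for progression (circles) and early (diamonds) spleens, with 1 row a gene, genes higher in progression above genes lower in progression. The groups are apart for every gene drawn but Mpst, where 1 progression circle lies among the early diamonds.

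No member of any gene list passed the adjusted threshold, so each list is described by its values. Monocyte genes had a median difference of 0.30, with 11 of 13 positive and 3 higher at an unadjusted p under 0.05 (3.79% over all genes). Cd68, a lysosomal protein of monocytes and macrophages, read 10.71, 10.19 and 9.49 in progression arrays 1, 2 and 3, against 9.04, 9.17 and 9.51 in early arrays 1, 2 and 3. Early array 3 and progression array 3 were level, so the groups overlapped, and the difference was 0.90 ± 0.25 (adjusted p = 0.634, limma). Csf1r, the receptor for the macrophage growth factor, read 12.98, 12.24 and 12.10 in the progression arrays and 11.76, 12.01 and 11.43 in the early arrays, without overlap and with a difference of 0.71 ± 0.23, but its other probe sets overlapped and differed by 0.42 and 0.16. Cx3cr1, the fractalkine receptor, read 9.90, 8.45 and 8.44 in the progression arrays and 8.04, 7.93 and 7.49 in the early arrays, also without overlap, with a difference of 1.11 ± 0.44, and of 0.15 on another probe set. Progression array 1 was the highest for each of these 3 genes.

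Macrophage genes of the spleen had a median of 0.47, with 15 of 18 differences positive. The medians were 0.92, -0.039 and 0.42 for progression arrays 1, 2 and 3 against the early mean, so array 2 did not share the shift. Apoe, a lipid carrier made by macrophages, read 11.27, 10.37 and 10.44 in progression arrays 1, 2 and 3, against 10.01, 9.98 and 9.16 in early arrays 1, 2 and 3, without overlap. Its difference was 0.98 ± 0.36. Complement gene C1qb read 10.50, 9.31 and 9.73 in the progression arrays and 9.55, 9.89 and 8.54 in the early arrays, Cd5l 10.61, 9.60 and 10.44 in the progression arrays and 10.01, 10.08 and 7.90 in the early arrays, and Mertk, a receptor for dying cells, 7.66, 6.91 and 7.30 in the progression arrays and 7.24, 7.71 and 5.34 in the early arrays. For these 3 genes early array 3 was the lowest of the 6 arrays, and early arrays 1 and 2 lay inside the progression range, except Mertk on early array 2, which lay above it. Vcam1, an adhesion molecule of red pulp macrophages and stroma, differed by -0.12 ± 0.26. The wild-type range of Spic, 9.31 to 10.83, was above both stages.

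Dendritic cell genes had a median of 0.10 over 14 genes. Cd209a, a C-type lectin of dendritic cells and monocytes, was the only 1 of them at an unadjusted p under 0.05 (3.79% over all genes higher), with 10.06, 7.74 and 7.01 in progression arrays 1, 2 and 3, against 6.36, 6.72 and 6.51 in early arrays 1, 2 and 3. Progression array 1 stood more than 3 log2 units above every early array, the groups did not overlap, and the difference was 1.74 ± 0.62. MHC class II genes, which present antigen, had a median of 0.076 over 8 genes, and H2-Aa read 13.26, 12.71 and 13.30 in the progression arrays and 12.89, 13.20 and 12.60 in the early arrays.

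Interferon-induced genes had mostly positive differences. Of 26 measured, 23 differences were positive, with a median of 0.27. At an unadjusted p under 0.05, 5 were higher (3.79% over all genes) and 0 lower, and 3 did not overlap between groups (4.18% over all genes). The list mean was 9.01, 8.26 and 8.27 in progression arrays 1, 2 and 3, against 8.11, 8.23 and 8.13 in the early arrays. These means did not overlap, but progression array 1 stood well above the other 2 progression arrays, which cleared the highest early array by under 0.1. Ifit3, an antiviral protein, read 7.83, 6.75 and 6.27 in progression arrays 1, 2 and 3, against 6.001, 5.77 and 5.70 in early arrays 1, 2 and 3, without overlap, and differed by 1.12 ± 0.39 (adjusted p = 0.634, limma). Ifi27l2a read 10.94, 9.48 and 9.06 in the progression arrays and 8.51, 8.60 and 8.22 in the early arrays, also without overlap, and differed by 1.38 ± 0.58. Mx1, an antiviral GTPase, differed by 1.11 ± 0.46. Stat2, a transcription factor that carries the interferon signal, differed by 0.39 ± 0.16, but by -0.12 on its other probe set, and Psmb9, a subunit of the immunoproteasome, by 0.33 ± 0.14. Ifit1 was above the early arrays on progression array 1 alone, with 8.51, 6.42 and 6.93 in the progression arrays and 7.02, 7.43 and 6.94 in the early arrays.

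Promoters of interferon-induced genes commonly carry a short sequence repeat. The motif TTTCNNTTTC, searched also as GAAANNGAAA for the other strand, was found in the 250 bases before the start of 11 of the 21 interferon-list genes with a RefSeq promoter entry, against 978 of 32851 promoters (2.98%). The list count is by gene, where a match in any entry of a gene counts, and the background is by promoter entry. These shares are therefore not in like units. The promoters of Ifit3, which had the smallest p of the list, and of Stat2 are shown as they read in RefSeq (mouse GRCm38.p6), both on the plus strand, with the motif in capitals. The Ifit3 window is chr19:34583279-34583528, with motifs that begin 156 and 122 bases before the start, and the Stat2 window is chr10:128270248-128270497, with 1 motif that begins 222 bases before it.
Ifit3: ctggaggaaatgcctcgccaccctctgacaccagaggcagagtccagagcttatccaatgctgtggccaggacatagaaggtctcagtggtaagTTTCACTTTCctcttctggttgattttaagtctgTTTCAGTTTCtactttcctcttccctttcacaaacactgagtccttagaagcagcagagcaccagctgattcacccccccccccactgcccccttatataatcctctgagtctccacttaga
Stat2: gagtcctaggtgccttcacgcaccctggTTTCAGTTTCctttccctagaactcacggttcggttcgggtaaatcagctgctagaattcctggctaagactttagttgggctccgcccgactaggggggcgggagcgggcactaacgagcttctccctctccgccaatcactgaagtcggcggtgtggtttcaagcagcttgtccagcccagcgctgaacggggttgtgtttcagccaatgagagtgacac
A motif match describes these letters and was not tested as a binding site.

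B cell genes lay lower in progression arrays 1 and 2 and not in array 3. Of 21 measured genes, 19 had negative differences, with a median of -0.54 and 2 at an unadjusted p under 0.05 (3.55% over all genes). The medians by array were -1.44, -0.55 and 0.29 for progression arrays 1, 2 and 3. Cd79a, a chain of the B cell receptor, read 6.36, 7.31 and 8.77 in progression arrays 1, 2 and 3, against 8.82, 8.88 and 8.00 in early arrays 1, 2 and 3. Array 3 lay among the early arrays, and the difference was -1.09 ± 0.49 (adjusted p = 0.676, limma). Ebf1, a transcription factor that commits cells to the B line, read 5.30, 5.85 and 7.09 in the progression arrays and 7.43, 7.77 and 6.23 in the early arrays, and Cr2, the complement receptor of mature B cells, 6.99, 7.91 and 9.42 in the progression arrays and 9.74, 10.25 and 8.01 in the early arrays. In both, progression array 1 was the lowest, early array 3 was the lowest of its group, and the groups overlapped. Cd79a in wild-type spleens read 9.65 to 10.14, above both stages.

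Plasma cell genes had a median of -0.12 over 14 genes. Jchain, which links secreted antibodies, read 11.47, 11.89 and 12.81 in progression arrays 1, 2 and 3, against 12.55, 12.94 and 13.26 in early arrays 1, 2 and 3. Progression array 3 lay between early arrays 1 and 2, and the difference was -0.86 ± 0.26. Early B cell precursor genes had a positive median of 0.40 over 10 genes. Vpreb1, a part of the surrogate light chain, read 6.86, 4.67 and 6.83 in the progression arrays and 4.78, 5.49 and 4.64 in the early arrays, and Rag1, which cuts antigen receptor genes, 5.58, 4.77 and 6.15 in the progression arrays and 5.35, 4.01 and 3.58 in the early arrays. For Vpreb1, progression arrays 1 and 3 were high and array 2 lay among the early arrays. Without array 2 its difference was 1.88 ± 0.24 (adjusted p = 0.0474, limma), and this call rests on the other 2 progression arrays. Rag1 was dim in both groups, with overlap. Il7r, the interleukin 7 receptor, differed by -0.74 ± 0.25 in the opposite direction.

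T cell genes had a median of -0.12 over 22 genes, with array medians of -0.54, -0.13 and 0.27. Bcl11b, a T cell transcription factor, read 5.45, 6.38 and 7.97 in progression arrays 1, 2 and 3, against 7.99, 7.44 and 6.71 in early arrays 1, 2 and 3, from far below the early range on array 1 to its upper end on array 3. NK and cytotoxic genes had a median of 0.18 over 17 genes. Ncr1, an activating receptor of NK cells, read 5.70, 6.35 and 5.69 in the progression arrays and 5.09, 5.00 and 4.86 in the early arrays, without overlap, and differed by 0.93 ± 0.37. Gzma, a granzyme, read 8.24, 10.01 and 9.89 in the progression arrays and 9.14, 8.42 and 7.42 in the early arrays and differed by 1.05 ± 0.54. Homing chemokines and receptors had a median of -0.36 over 8 genes, with array medians of -0.74, -0.37 and 0.16. The B cell follicle receptor Cxcr5, also on the B cell list, led them at -1.23 ± 0.58. It read 5.48, 6.17 and 8.11 in progression arrays 1, 2 and 3, with array 3 inside the early range (8.20, 8.56 and 6.70 in early arrays 1, 2 and 3).

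The red cell membrane list had a median of -0.32, with 14 of 15 negative. At an unadjusted p under 0.05, 4 were lower (3.55% over all genes), and 4 did not overlap (3.06% over all genes). Slc4a1, the band 3 anion exchanger, read 13.62, 13.35 and 13.75 in progression arrays 1, 2 and 3, against 13.91, 13.91 and 13.91 in early arrays 1, 2 and 3, below all early arrays, with a difference of -0.34 ± 0.12 (adjusted p = 0.64, limma). Its 3 probe sets gave -2.17, -0.34 and 0.0076. Sptb, a spectrin chain, differed by -0.45 ± 0.18, and Tspan33, a tetraspanin of red cell precursors, by -0.44 ± 0.20, both without overlap. Rhag, a Rhesus complex protein, differed by -0.52 ± 0.23 with overlap. Tfrc, the transferrin receptor, read 12.997, 12.48 and 12.70 in the progression arrays and 13.02, 13.15 and 13.47 in the early arrays, lower without overlap, with a difference of -0.49 ± 0.19 and a negative sign on all 6 of its probe sets. Haem synthesis enzymes had a smaller median of -0.16 over 11 genes, none at an unadjusted p under 0.05, and Alas2, the first enzyme of the path, read 13.04, 12.55 and 12.85 in the progression arrays and 12.91, 13.06 and 13.21 in the early arrays.

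Among globins and erythroid regulators, with a median of -0.12 over 17 genes, the embryonic globin Hbb-y differed most between single arrays. It read 13.44, 10.39 and 5.03 in progression arrays 1, 2 and 3, against 4.17, 6.37 and 3.79 in early arrays 1, 2 and 3. The first 2 of these lay far above every other spleen array (3.23 to 6.87), and progression array 3 lay in the early range. On all 3 Hbb-y probe sets progression array 1 was the highest of the 6 arrays and progression array 2 the next. The difference was 4.84 ± 1.56 (adjusted p = 0.634, limma). Hbb-bh1, another embryonic globin, read 6.83, 6.36 and 6.57 in the progression arrays and 5.98, 6.18 and 6.10 in the early arrays, without overlap, a difference of 0.50 ± 0.21.

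Megakaryocyte and platelet genes had a median of 0.44, with 15 of 17 positive, but the array medians were 1.31, -0.016 and -0.091. Only progression array 1 lay above the early mean. Ppbp, a platelet chemokine, read 13.22, 11.70 and 11.21 in progression arrays 1, 2 and 3, against 11.94, 11.65 and 8.68 in early arrays 1, 2 and 3, and Pf4, platelet factor 4, read 12.38, 10.58 and 10.05 in the progression arrays and 11.03, 10.74 and 8.54 in the early arrays. Early array 3 was the lowest of the 6 for both genes, and no list member was at an unadjusted p under 0.05.

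Granulocyte genes had list medians near 0. Primary granule genes had a median of 0.085 over 11 genes, and late granule and surface genes -0.073 over 18 genes, with none at an unadjusted p under 0.05 in either list. Elane, neutrophil elastase, read 11.74, 13.09 and 12.51 in the progression arrays and 12.72, 11.77 and 13.13 in the early arrays, and Ltf, lactoferrin, 13.23, 14.03 and 14.12 in the progression arrays and 13.88, 13.88 and 14.23 in the early arrays. Progression array 1 was the lowest of the 6 for Ltf and for Itgam, a surface integrin, at 8.87, 9.87 and 10.15 in the progression arrays and 9.73, 9.27 and 10.59 in the early arrays. Mast cell, basophil and eosinophil genes had a median of 0.11 over 17 genes. Mcpt8, a basophil protease, differed by 1.20 ± 0.52. The eosinophil peroxidase Epx read 8.32, 10.33 and 10.70 in the progression arrays and 10.49, 8.11 and 7.30 in the early arrays, high on progression arrays 2 and 3 and on early array 1.

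**Figure D4:**
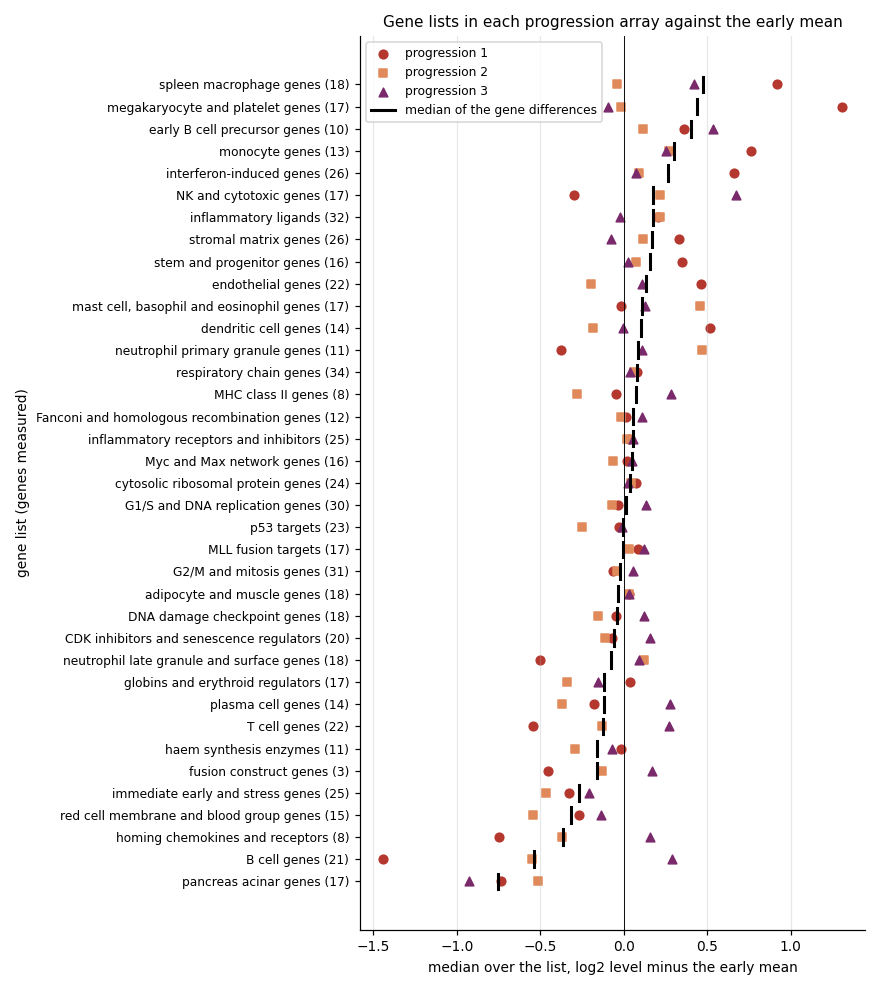
Median over each of 37 gene lists (the sex-linked list is left out) of the log2 level minus the early mean (horizontal axis) for progression arrays 1 (circle), 2 (square) and 3 (triangle), with the median of the gene differences as a black bar and the number of genes measured beside each list name. The B cell list has a median of -0.54 and stands at 0.29 on progression array 3, and megakaryocyte genes stand at 1.31 on progression array 1.

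Proliferation genes had list medians near 0. G2/M and mitosis genes had a median of -0.020 over 31 genes, with 1 higher at an unadjusted p under 0.05 (3.79% over all genes). Mki67, a protein of cycling cells, read 13.16, 13.18 and 13.30 in progression arrays 1, 2 and 3, against 13.38, 13.52 and 12.85 in early arrays 1, 2 and 3, a difference of -0.037 ± 0.15 (adjusted p = 0.972, limma). Wild-type spleens read 12.78 to 13.05. Cdk1, the mitotic kinase, differed by 0.34 ± 0.15. G1/S and DNA replication genes had a median of 0.017 over 30 genes, with 3 higher at an unadjusted p under 0.05 (3.79% over all genes) and 4 above without overlap (4.18% over all genes). Rfc3, a subunit of the clamp loader, read 8.75, 8.72 and 8.37 in the progression arrays and 8.26, 8.27 and 8.14 in the early arrays and differed by 0.39 ± 0.12, and Pcna, the replication clamp, by 0.28 ± 0.13.

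The DDR lists were near 0 as well. DNA damage checkpoint genes had a median of -0.043 over 18 genes and Fanconi and homologous recombination genes 0.056 over 12, with none at an unadjusted p under 0.05. Chek1, a checkpoint kinase, read 8.53, 8.49 and 8.67 in progression arrays 1, 2 and 3, against 8.46, 8.41 and 8.57 in early arrays 1, 2 and 3, a difference of 0.085 ± 0.15 (adjusted p = 0.918, limma). Atm, the kinase that senses double-strand breaks, differed by -0.35 ± 0.19, and Trp53bp1, which binds at breaks, by -0.42 ± 0.26, with progression arrays 1 and 2 low and array 3 among the early arrays. Transcript levels do not measure the phosphorylation by which this response is usually scored. The p53 targets had a median of -0.0050 over 23 genes, with 2 lower at an unadjusted p under 0.05 (3.55% over all genes), the stress regulators Sesn2 (-0.63 ± 0.20) and Ddit4 (-0.69 ± 0.29), and none higher.

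CDK inhibitors and senescence regulators had a median of -0.060 over 20 genes. Cdkn1a, which encodes the inhibitor p21, read 9.26, 7.96 and 7.78 in progression arrays 1, 2 and 3, against 7.60, 7.76 and 8.02 in early arrays 1, 2 and 3. Progression array 1 stood more than 1 log2 unit above all the others, and arrays 2 and 3 overlapped the early range. The difference was 0.54 ± 0.31 (adjusted p = 0.716, limma), and terminal spleens read 8.57 to 8.70. Cdkn2a, which encodes p16 and p19Arf, was dim at 4.00, 3.90 and 4.87 in the progression arrays and 5.62, 4.65 and 4.21 in the early arrays, a difference of -0.57 ± 0.50. Lmnb1 read 9.49, 9.58 and 11.89 in progression arrays 1, 2 and 3, against 11.61, 11.52 and 11.79 in early arrays 1, 2 and 3. The first 2 progression arrays lay below all other spleen arrays (10.90 to 11.89), and they were also the lowest of the 6 on a second Lmnb1 probe set. Progression array 3 was the highest of the 6. The difference was -1.32 ± 0.44. Hmga2, a chromatin protein found in senescent cells, read 5.81, 5.76 and 4.44 in the progression arrays and 4.60, 4.75 and 4.33 in the early arrays, again with only arrays 1 and 2 high. Myc and Max network genes had a median of 0.048 over 16 genes. Max, the partner of Myc, read 6.03, 6.56 and 9.66 in progression arrays 1, 2 and 3, against 9.36, 9.34 and 9.86 in early arrays 1, 2 and 3, while Myc differed by 0.016 ± 0.14. Only 1 probe set measured Max, so its low values could not be checked on another.

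Inflammatory ligands, the secreted factors, had a median of 0.17 over 32 genes, with 1 higher at an unadjusted p under 0.05 (3.79% over all genes), the growth factor Igf1 (0.74 ± 0.30). Igf1 read 8.15, 7.80 and 7.55 in progression arrays 1, 2 and 3, against 7.48, 7.46 and 6.33 in early arrays 1, 2 and 3. Its other probe sets overlapped and differed by 0.37 and 0.32, and early array 3 was the lowest array on each probe set. Il6 was dim at 4.47, 5.15 and 3.56 in progression arrays 1, 2 and 3, against 4.00, 3.87 and 3.76 in early arrays 1, 2 and 3, with overlap, a difference of 0.52 ± 0.56 (adjusted p = 0.853, limma). Tnf read 7.20, 7.06 and 7.02 in the progression arrays and 6.56, 6.68 and 6.98 in the early arrays, without overlap, a difference of 0.35 ± 0.19. Cxcl2, a neutrophil chemokine, read 4.72, 4.92 and 3.76 in the progression arrays and 5.54, 4.88 and 9.98 in the early arrays, a difference of -2.33 ± 1.28, with early array 3 far above the other 5 arrays. Inflammatory receptors and inhibitors had a median of 0.054 over 25 genes. Il6ra, the interleukin 6 receptor, differed by 0.53 ± 0.20 on its brightest probe set and by -0.63 on the other. Il1r1, the interleukin 1 receptor, read 6.51, 6.42 and 6.28 in the progression arrays and 6.99, 6.98 and 6.75 in the early arrays, lower without overlap, a difference of -0.50 ± 0.22. Immediate early and stress genes had a median of -0.27 over 25 genes. Jun, a partner of Fos, read 6.30, 5.54 and 7.52 in the progression arrays and 6.76, 6.61 and 11.06 in the early arrays, and Hspa1a, a heat shock protein, 5.98, 4.26 and 4.54 in the progression arrays and 4.77, 4.84 and 9.29 in the early arrays, both set apart by early array 3.

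Lists of supporting tissue and of basic functions complete the description. Stromal matrix genes had a median of 0.17 over 26 genes and endothelial genes 0.13 over 22, both with early array 3 low: Stab2, a scavenger receptor of sinus endothelium, read 8.90, 7.74 and 8.04 in the progression arrays and 8.65, 8.81 and 5.41 in the early arrays. The pancreas acinar list had a median of -0.75 with all 17 genes negative and early array 1 the highest, and its digestive enzyme gene Cpa1 read 3.83, 4.33 and 3.75 in the progression arrays and 7.25, 4.26 and 3.93 in the early arrays. Adipocyte and muscle genes had a median of -0.032 over 18 genes. Adipoq, made by fat cells, was at 3.46 or less on all 6 arrays, while Ckm, muscle creatine kinase, read 8.33, 8.24 and 7.49 in the progression arrays and 7.49, 6.58 and 6.11 in the early arrays. The 4 sex-linked genes had a median of 0.70, with the high Xist level on early array 1. Cytosolic ribosomal protein genes had a median of 0.037 over 24 genes and respiratory chain genes 0.078 over 34, and for both lists the progression array means lay just above all 3 early array means. The 3 fusion construct genes had a median of -0.16.

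Progression arrays 1 and 2 differed from array 3 at many genes. Their mean was at least 1 log2 unit above array 3 at 141 genes and at least 1 below at 240. Of 12394 genes, both lay above all the other 12 spleen arrays at 746 and below all of them at 766, by at least 1 unit at 5 and 7. The same count is not given for other pairs of arrays. Without array 3, 382 of the 12394 genes passed the threshold, and on 184 of the 382 array 3 lay within the range of the early arrays. Those calls describe 2 arrays. Both of these arrays had the low 18S signal. They also had the highest signals of the spleen arrays for the B1 repeat, 11.29 and 11.21 against at most 10.49 on the other 12 arrays, and for the B2 repeat, 9.82 and 10.15 against at most 9.30. The part of these signals in the calls was not tested. Of the 382, 20 were among the 30 genes of smallest p, and progression array 3 lay on the same side of the early mean for 160.

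Of the 656 list genes measured, those named here passed without array 3, against 382 of 12394 over all genes. The share on the lists was no higher than the share over all genes. Higher were Hbb-y at 7.13 ± 1.12, Hmga2 at 1.22 ± 0.22, Cd68 at 1.22 ± 0.20, Cd48 at 0.95 ± 0.21 and Rfc3 at 0.51 ± 0.11. Lower were Max at -3.23 ± 0.19 (adjusted p = 2.47e-06, limma), Lmnb1 at -2.10 ± 0.15, Cxcr5 at -1.99 ± 0.47, the fatty acid desaturase Scd1 at -1.89 ± 0.43, Cd79a at -1.73 ± 0.41, Bcl11b at -1.47 ± 0.36, Jchain at -1.24 ± 0.19, Il7r at -1.08 ± 0.19, Il2rb, a cytokine receptor of NK and T cells, at -1.04 ± 0.25, and Rela, an NF-kB subunit, at -0.66 ± 0.11.

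**Figure D5:**
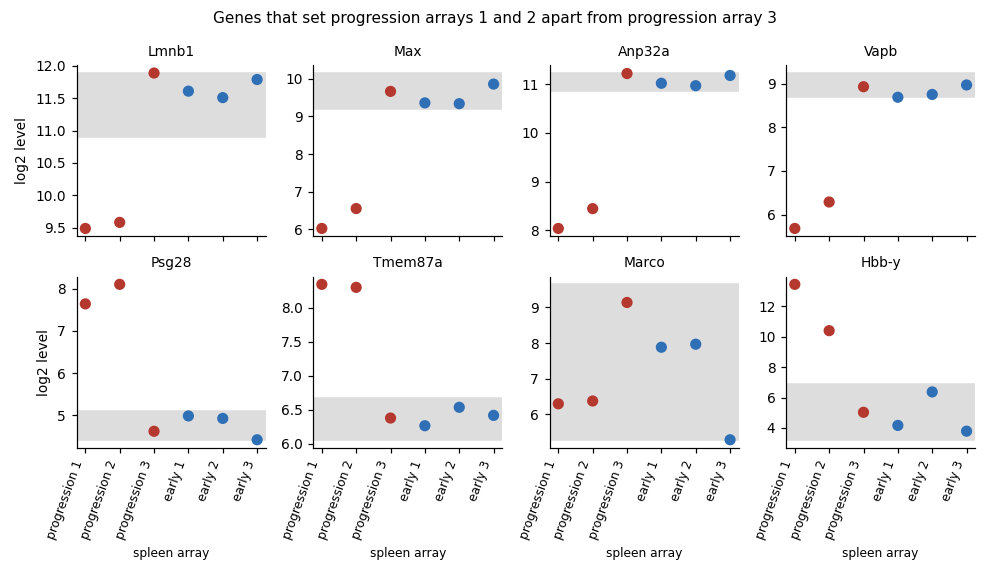
Log2 levels (vertical axes) of 8 genes on the 6 arrays (horizontal axis, progression left of early), with the range of the other 12 spleen arrays (all but progression arrays 1 and 2) as a grey band. Progression arrays 1 and 2 lie outside the band for Lmnb1, Max, Anp32a, Vapb, Psg28, Tmem87a and Hbb-y and inside it for Marco, while array 3 lies within the band by construction.

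The change between spleen stages was also set against the change in bone marrow from the proliferation state (4 arrays) to senescence (3 arrays), which shares no array with it. Tamoxifen had been given for 8 months in the senescence samples and for 7 months in the proliferation samples, so state and time cannot be told apart in marrow either. The Y-linked gene Eif2s3y read 4.24, 11.79 and 11.89 in senescence arrays 1, 2 and 3 and 4.12 to 4.29 in the proliferation arrays, so sex was not balanced, and its part in the marrow change was not tested. Marrow and spleen arrays lie on different medians, so the difference between the 2 changes was tested. No gene of 12394 passed (0%), with 492 at an unadjusted p under 0.05 (3.97%). Adgre1 had a spleen change of 0.94 and a marrow change of -0.26, a difference between tissues of 1.20 ± 0.35 (adjusted p = 1, limma). Bex6 differed between tissues by 1.60 ± 0.47, and Tmem87a by 2.86 ± 0.67. On the lower side Pip5k1a differed by -0.97 ± 0.24 and Mpst by -2.29 ± 0.64. Cd244a, Epha7, Gspt2, Tinagl1 and Fuom complete the 5 genes of smallest p in each direction, with differences of 1.52, 2.87, -1.30, -1.10 and -0.97. The marrow part of these differences varied. Spleen and marrow changes were 1.27 and -1.59 for Tmem87a, 1.59 and -1.28 for Epha7, and 0.98 and -0.62 for Bex6. They were -0.91 and 0.058 for Pip5k1a, and -2.34 and -0.058 for Mpst. Within spleen, Tmem87a and Mpst stood apart on progression arrays 1 and 2 alone. Without progression array 3 the number of genes that passed was 68.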

How the data were processed

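RNA of spleen and bone marrow cells was hybridised to Affymetrix mouse arrays. The authors deposited log2 probe set values made by RMA with the packages affy and limma, per the submitters' processing notes, without versions; marrow and spleen arrays have different medians. Of 22690 probe sets, 20393 carry 1 gene symbol in GEO's annotation, 691 several and 1606 are not listed; the brightest probe set per symbol over the spleen arrays stood for each of 12394 genes. Samples were grouped by their stage labels. A limma 3.58.1 fit (R 4.3.3, lmFit and eBayes) over 14 spleen arrays in 4 groups, with 10 residual degrees of freedom, gave progression minus early, adjusted by Benjamini-Hochberg at 0.05. A second fit over all 29 arrays gave the spleen change minus the marrow change. Scripts were tested on simulated data.

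Same-numbered samples of the groups are not linked by the labels, and their deviations from the group means correlated at r = 0.07, -0.20 and 0.05, so no pairing was used. Named were the 15 genes a direction past the threshold, filled up by smallest p (placeholder symbols, receptor segments, Xist and Y-linked genes left out), 10 genes named always, up to 8 members by p and the first 4 of each of 38 lists, and 5 a direction of the marrow contrast. Hfe, Scarb1, Pip5k1a and other second probe sets, and the genes used to describe single arrays, were chosen after their values were seen. The comparison, members and lists were chosen with earlier results of these data known. Settings besides the main one numbered 23, of which 5 were added after seeing the data. Promoters came from RefSeq (GRCm38.p6).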

Additional observations from a re-analysis of the deposited data

Results flagged for a closer look

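A sample far from the others of its group was looked for over the mean level of each of 38 lists in the 5 wild-type spleens, since only that group is large enough; chance marks about 1 group in 20. Wild-type array 5 had a haem synthesis list mean of 11.25, with the nearest other array at 11.48, and a red cell membrane list mean of 10.96, with the nearest at 11.22. Wild-type array 1 had an inflammatory receptor list mean of 8.84, with the nearest at 8.49. Wild-type array 4 had an interferon-induced list mean of 9.11, with the nearest at 8.95. The pancreas acinar list was not flagged by this rule, although its mean was 11.40 on wild-type array 3 and 6.96 on array 5. On wild-type arrays 1, 2 and 4 it was 5.26, 5.01 and 5.19. These arrays enter the comparison of the stages through the estimate of the spread and the choice of the brightest probe set for each gene.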

How the results depend on the processing

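The count of genes that passed was 0 as reported. It was 328 with array weights, 23 with only the arrays of high Atrx and 225 with only the arrays of low Atrx; leaving out 1 array at a time gave 0 to 382, the highest without progression array 3 and otherwise 1 at most. It was 0 in every other setting run. At an unadjusted p under 0.05 the count was 910 as reported, 534 for genes above the median level, 392 with only the 6 arrays, 2783 with array weights, 540 with progression arrays 1 and 2 left out, 526 with 18S as a covariate, 2301 with high Atrx, 2295 with low Atrx (1347 higher, 948 lower) and 487 to 2450 with 1 array left out, again highest without progression array 3, and 1515 without early array 3. Genes whose groups did not overlap numbered 897, 466 above the median level and 1453 to 3984 with 1 array left out, where fewer arrays must be apart. The spleen against marrow count was 0, 51 with array weights and 0 to 68 with 1 array left out.

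Both Atrx settings, the 18S and Atrx covariates and leaving out progression arrays 1 and 2 were chosen after seeing the data. With 18S as a covariate, 143 of 373 named genes and 9 of 38 list medians shifted by at least the spread between arrays of a group. Far lower 18S was found on progression arrays 1 and 2 alone, so this fit cannot tell 18S from whatever else those arrays share. With Atrx, Xist or the pancreas list as a covariate, 0 of 373 named genes shifted that far, and 0, 1 and 0 list medians did. A split on Malat1 was tried first and replaced, and the low-Atrx setting was dropped after its result was seen and then restored. It sets 1 array, progression 3, against 1 other, early 3, which stands apart in Fos and Plvap; each is assumed to vary like wild-type arrays 2 to 5. Its values describe these 2 arrays and say nothing about the stages. It gave, as progression minus early, Bcl11b 1.26, Blnk 1.03, Cd3g 1.13, Ciita 0.99, Cr2 1.41, Cxcr5 1.41, Gfi1b 1.10, Ms4a1 1.09 and Il1rn -1.20, each opposite in sign to the reported difference, and an interferon list median of -0.0065; the cause was not tested.

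With the replicate number as a replicate block, 0 genes passed and 684 were at an unadjusted p under 0.05; it changed no call.

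With 3 arrays a group and a median SE of 0.168, small differences were not detectable here. Probe sets near the lower quartile of the arrays, such as those of Cdkn2a and Il6, carry little signal over background.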

Other observations

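Genes chosen here after their values were seen separate progression arrays 1 and 2 from the other 12 spleen arrays. Psg28, a pregnancy-specific glycoprotein, read 7.64, 8.10 and 4.62 in progression arrays 1, 2 and 3, against 4.99, 4.93 and 4.42 in early arrays 1, 2 and 3, with the other 12 arrays at 4.42 to 5.09. Tmem87a read 8.34, 8.30 and 6.38 in progression arrays 1, 2 and 3, against 6.27, 6.54 and 6.42 in early arrays 1, 2 and 3, with the other 12 at 6.06 to 6.67. Anp32a, a histone-binding protein, read 8.04, 8.45 and 11.22 in progression arrays 1, 2 and 3, against 11.02, 10.97 and 11.18 in early arrays 1, 2 and 3 on its brightest probe set, while its other 2 probe sets differed between the stages by -0.18 and 0.016. Vapb, a membrane contact protein, read 5.68, 6.29 and 8.93 in progression arrays 1, 2 and 3, against 8.69, 8.76 and 8.97 in early arrays 1, 2 and 3, and its other probe set differed by 0.18. Lmnb1 was low on both of its probe sets in these arrays, and Hbb-y high on all 3 of its own.

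Marco, a scavenger receptor of marginal zone macrophages, read 6.29, 6.37 and 9.14 in progression arrays 1, 2 and 3, against 7.88, 7.97 and 5.28 in early arrays 1, 2 and 3, so it was higher on progression array 3 and lowest on early array 3. Early array 3 differed from the mean of early arrays 1 and 2 by at least 1 log2 unit at 276 genes upward and 402 downward.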
